A study of Mus musculus with 5 samples.

Results

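The genes described here are 10 Polycomb group genes of the mouse, Bmi1, Ring1, Rnf2, Cbx2 and Cbx7 of Polycomb repressive complex PRC1, and Ezh1, Ezh2, Eed, Suz12 and Jarid2 of PRC2. They were chosen by name, and every gene probe whose RefSeq transcript belongs to 1 of them was taken. This gave 16 probes for the 10 genes, out of 15446 named genes with at least 1 probe well above background on at least 1 array. Of the 10 genes, 6 had 2 probes and 4 had 1. All 16 probes passed that filter, and 14 of them were well above background on all 5 arrays.

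Polycomb proteins keep genes silent through marks on histones. PRC2 methylates histone H3 through its enzymes Ezh1 and Ezh2, and PRC1 ubiquitinates histone H2A through its ligases Ring1 and Rnf2, with chromobox proteins such as Cbx2 and Cbx7 binding the mark that PRC2 leaves. In embryonic stem cells these complexes occupy the silent genes of later lineages, and in dividing somatic and tumor cells Bmi1 is known above all as a repressor of the Cdkn2a locus, which encodes the tumor suppressors p16Ink4a and p19Arf.

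Total RNA of 5 cell populations was hybridised to 1 Agilent mouse array each. ES was the mouse embryonic stem (ES) cell line E14, and Hepa1-6 was a mouse hepatoma line. EHe was a hybrid line made by fusing E14 with Hepa1-6, and EHeD7 and EHeD14 were EHe cells after 7 and 14 days of differentiation in vitro. Leukemia inhibitory factor was present in the medium of ES and EHe, which held serum replacement and little serum. By the labels the differentiated hybrids were kept as a monolayer on gelatin in a high-glucose medium that held 15% fetal calf serum, and Hepa1-6 in the like medium with 10%, so medium and cell state cannot be told apart. By the study's methods the ES cells used for fusion carried a red fluorescent protein and hygromycin resistance, the cancer cells a green fluorescent protein and neomycin resistance, and the hybrids had a nearly tetraploid chromosome set and were picked as colonies after double selection. Whether the EHe array came from 1 colony is not given in the sources used here.

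No condition had a replicate array, so no SD between replicates, no test and no p-value exists for any difference below. Levels are log2 processed signals minus the 75th percentile of the array, so that 0 is the 75th percentile, and a level of 1 probe cannot be set against that of another. Each difference is given with the error that the scanner software assigned to the spots (±), which covers the spot and not the culture. A difference was counted when it passed 3-fold, which is 1.58 on the log2 scale. Where a probe was not well above background on 1 of the arrays compared, the fold is a minimum, taken against the dimmest signal that was called well above background there. In bulk RNA, fewer cells expressing a gene and less RNA per cell cannot be told apart.

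Between 54.7% of probes (Hepa1-6) and 67.6% (EHeD7) were well above background, and the log2 SD between 10 repeated spots of a probe ran from 0.07 to 0.10. The 4 arrays other than Hepa1-6 shared a slide, so that any difference of Hepa1-6 from the rest cannot be told apart from one of slides. The labels held against the ES cell genes named below and against Alb and Afp. The ES cell genes Pou5f1, Sox2, Zfp42 and Esrrb were well above background in ES and EHe and not in Hepa1-6, in which Dppa5a was well above background but 1211-fold lower than in ES. Alb and Afp were high in Hepa1-6, while Alb was not well above background on the other 4 arrays and Afp on the 3 hybrid arrays. Probes for the hepatocyte genes Ttr, Apoa1 and Apoh were not well above background on any array, Hepa1-6 included. Hnf4a did not separate the lines. Its probe A_51_P198473 was well above background on all arrays but EHe, and Hepa1-6 was 1.03 above ES on the log2 scale, within 3-fold. Its probe A_52_P683991 was well above background in EHe (-2.86) and Hepa1-6 (0.94), and A_52_P69656 in Hepa1-6 alone.

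The promoters of Bmi1, Cbx7 and Jarid2 are shown because these genes carried the differences described below. The sequences are from RefSeq (build GRCm38.p6), read 5′ to 3′ along the gene, and hold the 250 bases before the annotated transcription start, with every CG dinucleotide in capitals. They lie at chr2:18676768-18677017 on the plus strand for Bmi1, chr15:79932647-79932896 on the minus strand for Cbx7, and chr13:44730524-44730773 and chr13:44731021-44731270 on the plus strand for the 2 annotated starts of Jarid2.
Bmi1: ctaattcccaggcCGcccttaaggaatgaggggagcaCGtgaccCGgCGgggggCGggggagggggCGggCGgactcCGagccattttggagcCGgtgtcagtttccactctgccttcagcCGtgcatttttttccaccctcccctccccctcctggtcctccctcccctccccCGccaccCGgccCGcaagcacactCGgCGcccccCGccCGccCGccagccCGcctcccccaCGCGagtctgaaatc
Cbx7: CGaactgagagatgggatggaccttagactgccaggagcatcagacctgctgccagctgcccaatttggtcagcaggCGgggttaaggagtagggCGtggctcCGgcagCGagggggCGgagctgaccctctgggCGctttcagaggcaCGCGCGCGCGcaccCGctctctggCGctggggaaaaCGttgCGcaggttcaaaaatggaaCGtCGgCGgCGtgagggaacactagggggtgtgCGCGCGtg
Jarid2, first start: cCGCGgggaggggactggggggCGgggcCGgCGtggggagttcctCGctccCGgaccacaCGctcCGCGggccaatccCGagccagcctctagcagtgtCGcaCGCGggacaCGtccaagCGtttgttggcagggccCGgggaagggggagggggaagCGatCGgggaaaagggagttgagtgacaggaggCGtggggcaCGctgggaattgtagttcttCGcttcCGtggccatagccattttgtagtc
Jarid2, second start: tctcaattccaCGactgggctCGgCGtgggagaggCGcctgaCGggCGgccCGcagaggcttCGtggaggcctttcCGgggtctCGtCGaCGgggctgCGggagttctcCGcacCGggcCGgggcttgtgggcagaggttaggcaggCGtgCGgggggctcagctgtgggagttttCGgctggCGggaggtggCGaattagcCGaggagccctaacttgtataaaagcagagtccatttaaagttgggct
Bmi1 held 21 CG dinucleotides in this window, Cbx7 held 23, and the Jarid2 windows held 23 and 22, against a median of 6 over the 32851 promoters in the reference. Over the 9 genes of the 10 with an entry, and the 10 windows they gave, the count ran from 12 (Eed) to 37 (Suz12), above that median in all 10. Counts as high as that of Bmi1 occurred in 16.3% of all promoters, as high as that of Cbx7 in 13.3%, and as high as that of Suz12 in 2.20%. A search on both strands for the E-box CACGTG, whose letters read the same on each strand, found 1 match in the Bmi1 window, ending 209 bases before the start, and none in the other 9 windows; 6.02% of all promoters hold it. These are descriptions of sequence, and the arrays measured neither DNA methylation nor binding.

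**Figure D1:**
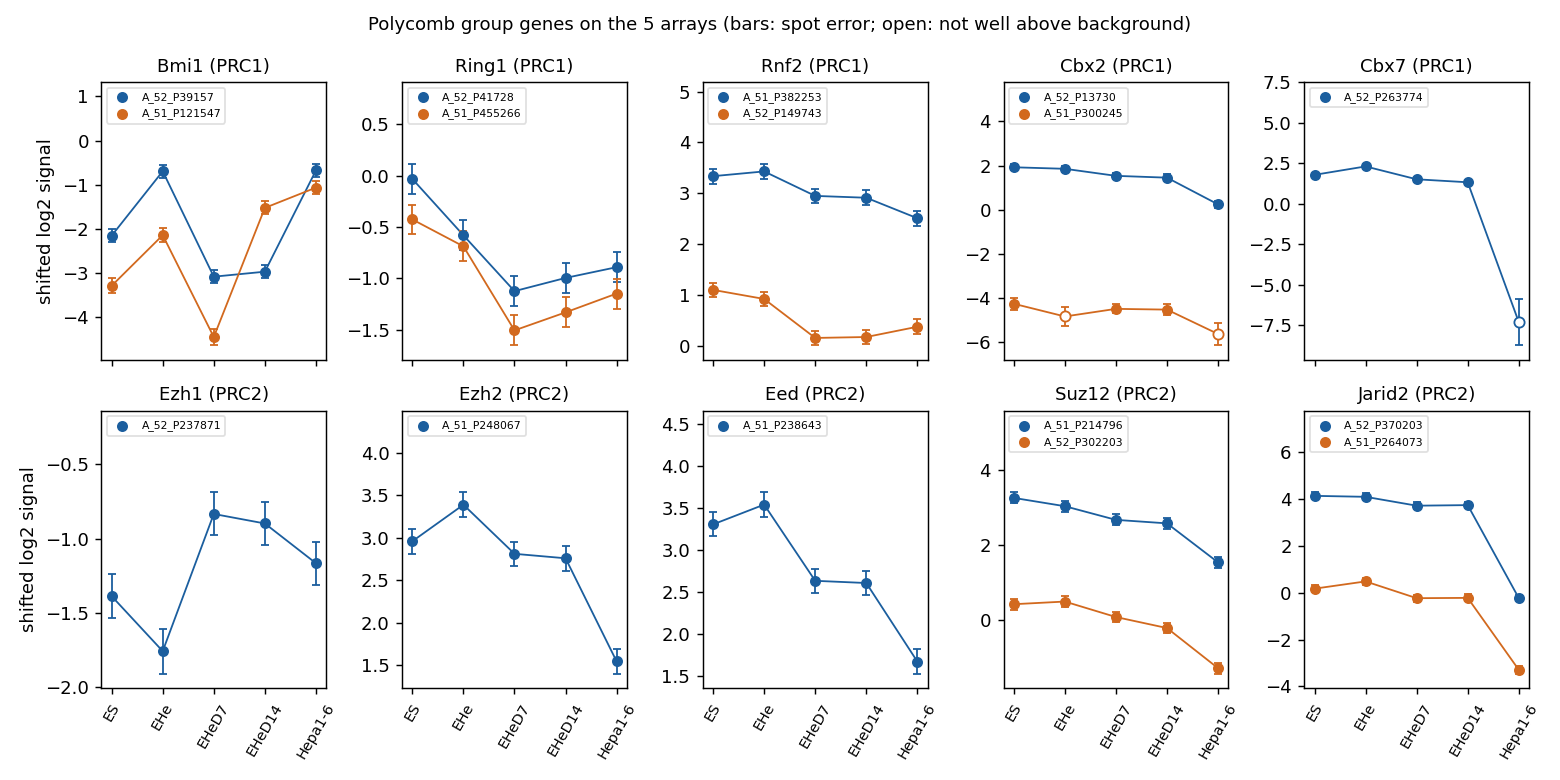
Shifted log2 signal (y axis) of each probe of the 10 Polycomb genes on the 5 arrays (x axis), with blue for the probe that stands for the gene, orange for a second probe, bars for the spot error of the scanner software, and open points where the probe was not well above background. On EHeD14 the brighter Bmi1 probe stands at -2.97 and the second at -1.53, and Cbx7 is not well above background in Hepa1-6.

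Bmi1 is a RING finger partner that raises the ligase activity of Rnf2. Its brighter probe, A_52_P39157, had levels of -2.16 in ES, -0.70 in EHe, -3.09 at day 7, -2.97 at day 14 and -0.68 in Hepa1-6. The second probe, A_51_P121547, had levels of -3.29 in ES, -2.14 in EHe, -4.45 at day 7, -1.53 at day 14 and -1.07 in Hepa1-6. On both probes EHeD7 was the lowest array and EHe stood above ES. Hepa1-6 was the highest array on the second probe, while on the brighter one Hepa1-6 and EHe lay closer together than their spot error. With normexp background correction EHe was the higher on that probe (EHe minus ES 1.21, Hepa1-6 minus ES 1.17), and with median centring Hepa1-6 was (1.58 and 2.28). All 10 levels were well above background, and none came from an outlier spot. At EHeD14 the brighter probe stayed near its EHeD7 level, and the second stood below Hepa1-6 alone.

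The E3 ligases Ring1 and Rnf2 varied little. Ring1 had levels of -0.03 in ES, -0.58 in EHe, -1.12 at day 7, -0.99 at day 14 and -0.89 in Hepa1-6 on probe A_52_P41728. ES was the highest array and the differentiated hybrids the lowest, and probe A_51_P455266 had the same highest and lowest array. Rnf2 had levels of 3.33 in ES, 3.43 in EHe, 2.95 at day 7, 2.91 at day 14 and 2.51 in Hepa1-6 on probe A_51_P382253. Its second probe, A_52_P149743, put Hepa1-6 (0.37) between ES (1.10) and EHeD7 (0.15), while the first put Hepa1-6 lowest.

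Of the chromobox readers, Cbx2 had levels of 1.93 in ES, 1.86 in EHe, 1.54 at day 7, 1.46 at day 14 and 0.25 in Hepa1-6 on probe A_52_P13730, with the 4 stem cell and hybrid arrays close together and Hepa1-6 apart. Its second probe, A_51_P300245, was dim, between -5.62 and -4.25, and was not well above background in EHe and Hepa1-6. Cbx7, the chromobox protein most used by PRC1 in ES cells, had levels of 1.79 in ES, 2.31 in EHe, 1.52 at day 7 and 1.33 at day 14. Its single probe, A_52_P263774, stood at -7.31 in Hepa1-6 and was not well above background there.

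Of the PRC2 methyltransferases, Ezh1, known from cells that divide little, had levels of -1.39 in ES, -1.76 in EHe, -0.83 at day 7, -0.90 at day 14 and -1.17 in Hepa1-6. Ezh2, the enzyme of dividing cells, had levels of 2.96 in ES, 3.39 in EHe, 2.81 at day 7, 2.76 at day 14 and 1.54 in Hepa1-6. EHe was the lowest array for Ezh1 and the highest for Ezh2. Among the 10 genes only Ezh1 had a higher level in both differentiated hybrids than in either ES or EHe on every probe.

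Eed, the subunit that binds the mark PRC2 makes, had levels of 3.30 in ES, 3.53 in EHe, 2.63 at day 7, 2.60 at day 14 and 1.67 in Hepa1-6. Suz12, the scaffold of the complex, had levels of 3.25 in ES, 3.03 in EHe, 2.67 at day 7, 2.57 at day 14 and 1.54 in Hepa1-6 on probe A_51_P214796. Both genes were highest in an undifferentiated array, intermediate in the differentiated hybrids and lowest in Hepa1-6, and the second Suz12 probe, A_52_P302203, gave the same order of these 3 kinds of cell. Jarid2, which helps bring PRC2 to its sites in ES cells, had levels of 4.14 in ES, 4.10 in EHe, 3.72 at day 7, 3.74 at day 14 and -0.23 in Hepa1-6 on probe A_52_P370203. The second Jarid2 probe, A_51_P264073, stood between -0.23 and 0.48 on the first 4 arrays and at -3.29 in Hepa1-6.

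The comparison of Hepa1-6 with ES asks how the Polycomb genes of the parental lines differed. No gene of the 10 was over 3-fold higher in Hepa1-6 and 5 were over 3-fold lower, where 14.0% of the 14546 named genes with a difference were over 3-fold higher and 22.3% lower. The 5 were Cbx2, Cbx7, Eed, Suz12 and Jarid2. The median difference of the 10 genes was -1.52 against -0.42 over all named genes. Cbx7 was at least 137-fold lower in Hepa1-6, and 0.928% of named genes had a lower difference. This minimum moved with the scaling, to 78.3-fold with median centring, 75.2-fold with quantile normalization and 38.7-fold with normexp. Jarid2 was 20.6-fold lower (log2 difference -4.36 ± 0.20), and its second probe gave 11.0-fold (-3.46 ± 0.22). Suz12 was 3.28-fold lower (-1.72 ± 0.20) and Cbx2 3.21-fold lower (-1.68 ± 0.20). Eed was just inside the threshold at 3.1-fold lower (-1.63 ± 0.20), and Ezh2 just outside it at 2.67-fold lower (-1.41 ± 0.20). Bmi1 stood on the other side, with 2.79-fold more signal in Hepa1-6 (1.48 ± 0.21), just under the threshold, on the brighter probe and 4.68-fold more (2.23 ± 0.22) on the second, which normexp brought to 2.91-fold. Ring1 (-0.86 ± 0.20) and Rnf2 (-0.83 ± 0.20) were lower by less than 2-fold, and the difference of Ezh1 (0.22 ± 0.21) was about as large as its spot error.

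The spot errors of Cbx2, Eed and Suz12 crossed the 3-fold line, and these 3 calls were lost with another scaling. When arrays were centred on their medians instead of their 75th percentiles, the median difference of all named genes moved from -0.42 to 0.40, 2 of the 10 genes (Cbx7 and Jarid2) were over 3-fold lower and 1 (Bmi1, 2.28 on the log2 scale) was over 3-fold higher, and the second probes of Ring1 and Rnf2 turned to 0.08. The directions of the other probes held.

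**Figure D2:**
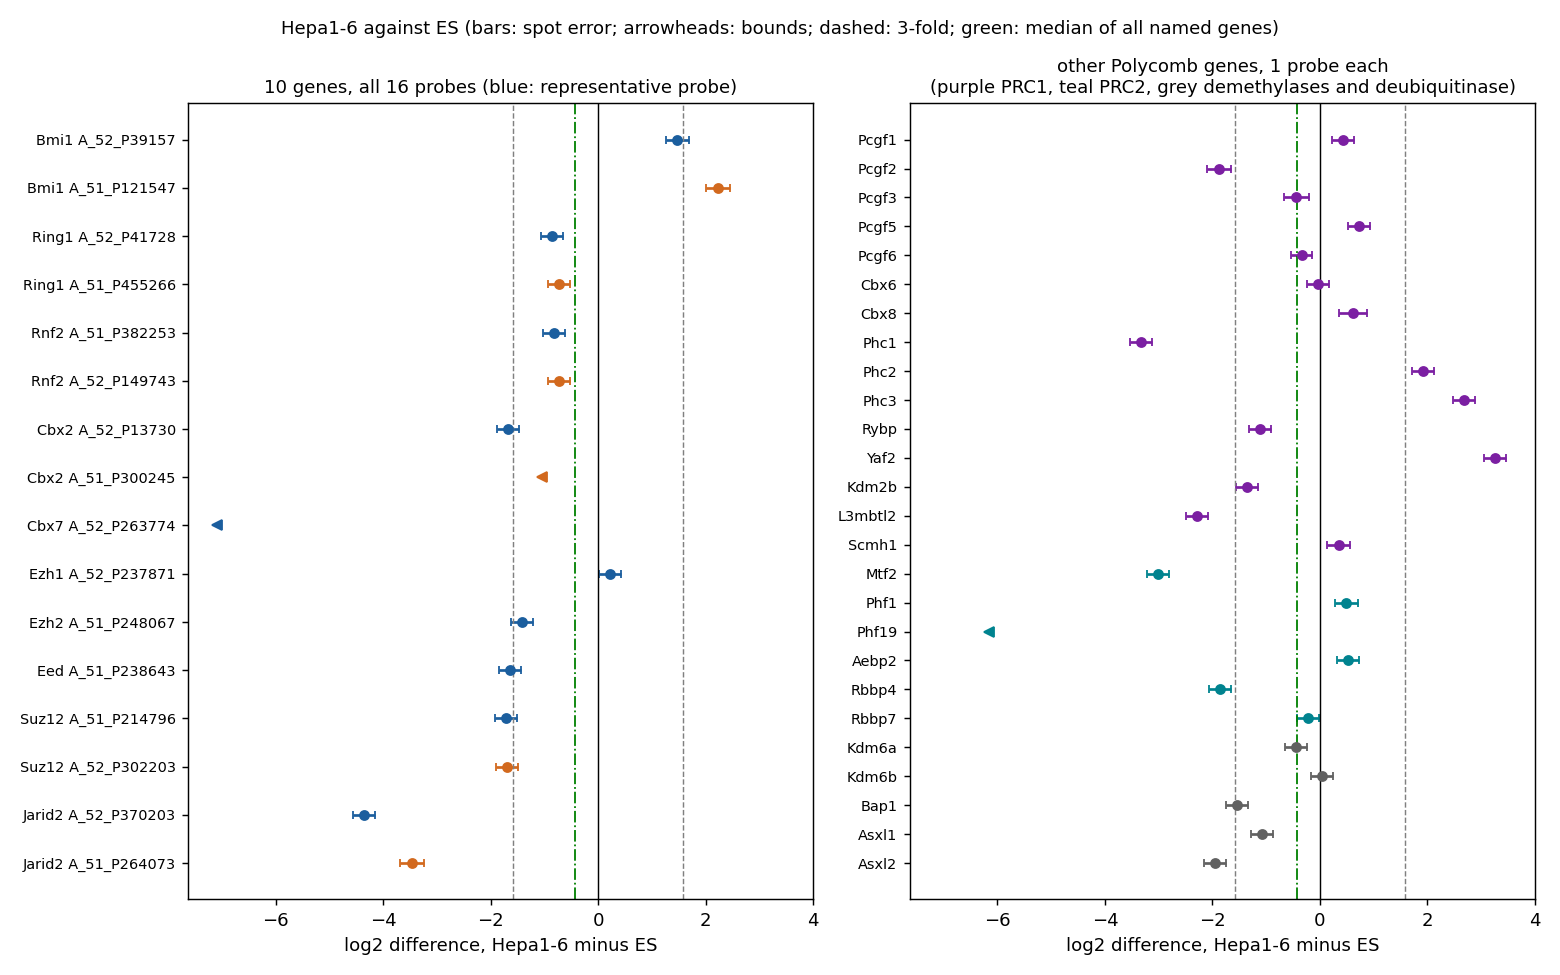
Log2 difference Hepa1-6 minus ES (x axis) for all 16 probes of the 10 genes (left) and for 1 probe each of other Polycomb genes (right), with bars for the spot error, arrowheads for bounds, dashed lines at 3-fold and a green line at the median of all named genes, -0.42. Cbx7 and Jarid2 lie far to the left, both Bmi1 probes lie to the right, and Yaf2 and Phc3 lie furthest to the right among the other genes.

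Other genes of the 2 complexes gave differences in both directions between the parental lines. Of 16 further PRC1 genes, 15 had a kept probe (Scml2 had none), 3 were over 3-fold higher in Hepa1-6 and 3 lower. Over all named genes 14.0% were higher and 22.3% lower, so these counts do not set the PRC1 genes apart. The higher ones were Yaf2, a relative of Rybp (9.64-fold), and the Polyhomeotic subunits Phc3 (6.43-fold) and Phc2 (3.79-fold). The lower ones were Phc1 (10.0-fold), L3mbtl2 (4.86-fold) and Pcgf2, the closest relative of Bmi1 (3.68-fold). Within the Polyhomeotic family the lines thus differed in opposite directions by member, with Phc1 higher in ES and Phc2 and Phc3 higher in Hepa1-6. These 3 directions held under each scaling tried.

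Of 6 further PRC2 genes none was over 3-fold higher in Hepa1-6 and 3 were lower, beside 14.0% and 22.3% of all named genes. They were Phf19, a Polycomb-like protein (at least 71.6-fold), Mtf2, of the same family (8.04-fold), and the histone-binding subunit Rbbp4 (3.64-fold). Of the histone H3 demethylases and the H2A deubiquitinase complex, 1 of 5 genes was over 3-fold lower, a share near that of all named genes. It was Asxl2 (3.86-fold), whose second probe, A_52_P448854, was within 3-fold (-2.77 in ES and -3.61 in Hepa1-6). With median centring, Pcgf2, L3mbtl2, Rbbp4 and Asxl2 were within 3-fold, while Phc1, Mtf2 and Phf19 stayed past it. Pcgf2 was within 3-fold with normexp (-1.26) and quantile normalization (-1.37) also.

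Most genes of cell division were also lower in Hepa1-6, and Mki67 alone of the 10 was higher (0.72, and 1.53 with median centring). Of 10 such genes 5 were over 3-fold lower in Hepa1-6 than in ES and none was over 3-fold higher, with a median of -1.55 (range -3.44 to 0.72). Of all named genes 22.3% were over 3-fold lower and 14.0% higher. The 5 were the replication genes Mcm5 (10.8-fold) and Mcm2 (4.42-fold), the mitotic genes Ccnb1 (5.0-fold) and Aurkb (3.88-fold), and Top2a (3.39-fold). With median centring 1 of them, Mcm5 (-2.63 on the log2 scale), stayed past 3-fold. Their part in the lower PRC2 levels of Hepa1-6 was not tested.

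Known Polycomb targets differed between the parental lines in both directions, 3 higher and 3 lower of 8 with a difference among the 12 listed. Over all named genes 14.0% were higher and 22.3% lower, and 8 genes are few to set beside these shares. The cyclin-dependent kinase inhibitor gene Cdkn2a had levels of -3.83 in ES, -4.17 in EHe, -4.80 at day 7, -5.25 at day 14 and 0.44 in Hepa1-6. Against ES it was 19.3-fold higher in Hepa1-6 (4.27 ± 0.23), and its probe was listed with 1 of the transcripts of the locus, so p16Ink4a and p19Arf were not told apart. The neighbouring inhibitor gene Cdkn2b was 73.3-fold higher in Hepa1-6 (6.20 ± 0.21). The third gene that was higher in Hepa1-6 was Hoxa9 (at least 3.53-fold), whose log2 difference of 1.82 dropped to 0.70 with normexp, within 3-fold, and the lower ones were Gata6 (at least 119-fold), Sox17 (at least 16.4-fold) and Hand1 (at least 11.8-fold), regulators of endoderm and early mesoderm and trophoblast. Under the scalings tried these 3 stayed past 3-fold, and the smallest log2 differences were -5.17 for Gata6, -2.32 for Sox17 and -2.34 for Hand1.

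The comparison of EHe with ES asks how far the hybrid differed from its stem cell parent. None of the 10 genes passed 3-fold in either direction, where 2.65% of 13825 named genes were over 3-fold higher and 3.59% lower. The median difference of the 10 was 0.03, against -0.14 over all named genes. Bmi1 had the largest difference of the 10 and was 2.75-fold higher in EHe (1.46 ± 0.21), with 96.7% of named genes below it, and its second probe gave 2.22-fold (1.15 ± 0.23). The other 9 genes lay between -0.55 (Ring1) and 0.52 (Cbx7), and Rnf2, Cbx2 and Jarid2 differed by less than their spot error. The remaining Polycomb genes behaved alike, with 0 of 15 PRC1 genes, 0 of 6 PRC2 genes and 0 of 5 demethylase and deubiquitinase genes past 3-fold. Known Polycomb targets did differ. Of 8 with a difference 3 were over 3-fold lower in EHe and 1 higher, beside 3.59% and 2.65% of all named genes. The lower ones were Gata6 (-3.69), Hand1 (-3.09, a bound) and Sox17 (-2.70), and the higher one was Pax6 (4.37).

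The levels in EHe can be placed on the gap between the parents, with ES at 0% and Hepa1-6 at 100%. This is a description, and the same arrays enter each value. For the genes over 3-fold lower in Hepa1-6, EHe stood at 4.11% for Cbx2, -14.4% for Eed, 12.9% and -4.15% for the Suz12 probes and 0.934% and -8.95% for the Jarid2 probes, all close to ES. For Bmi1 it stood at 98.8% on the brighter probe, almost at the Hepa1-6 level, and at 51.6% on the second. The first of these 2 values rests on the scaling. With median centring EHe minus ES was 1.58 and Hepa1-6 minus ES 2.28 on the brighter probe, so EHe lay below Hepa1-6. After differentiation EHeD14 stood at 28.0% for Cbx2, 42.8% for Eed, 39.5% and 37.3% for Suz12 and 9.06% and 11.4% for Jarid2. These shares depend on the scaling. With median centring Hepa1-6 minus ES shrank to -0.88 for Cbx2, -0.83 for Eed and -0.91 for the brighter Suz12 probe. EHeD14 minus Hepa1-6 was then 0.40, 0.13 and 0.23, so EHeD14 stood further along these 3 gaps. Cbx7 has no such value because its level in Hepa1-6 was not well above background.

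Differentiation was followed by comparing EHeD7 and EHeD14 with EHe, and the 2 comparisons share the EHe array. At day 7, 1 of the 10 genes passed 3-fold, Bmi1, and it was lower, where 7.57% of 13801 named genes were over 3-fold higher and 4.57% lower. At day 14 again only Bmi1 passed 3-fold downwards, on its brighter probe, where 7.61% of 13823 named genes were higher and 4.91% lower. The median difference of the 10 genes was -0.51 at day 7 and -0.49 at day 14, against -0.07 and -0.05 over all named genes. Of the 10 genes 9 had a negative difference at each day, as did 7483 of the 13801 named genes at day 7 and 7345 of the 13823 at day 14. Cbx7 was lower by 0.80 ± 0.20 and 0.98 ± 0.20 on the log2 scale, and Eed by 0.91 ± 0.20 and 0.93 ± 0.20. Ezh2, Suz12, Jarid2, Rnf2, Ring1 and Cbx2 lay between -0.63 and -0.32. Ezh1 was 1.90-fold higher at day 7 (0.92 ± 0.21) and 1.81-fold higher at day 14 (0.86 ± 0.21), and kept this direction under each scaling tried. The second, dim Cbx2 probe gave 0.34 ± 0.48 and 0.31 ± 0.51, both within the spot error.

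**Figure D3:**
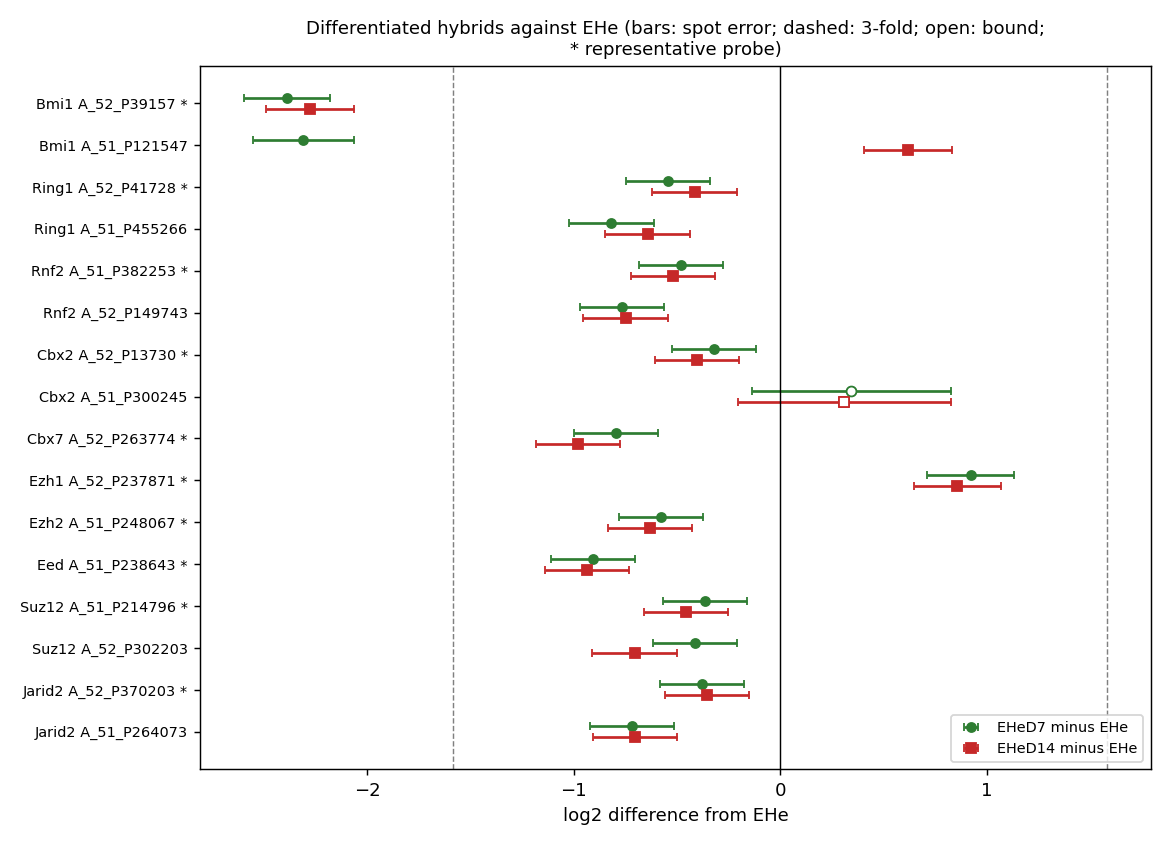
Log2 difference from EHe (x axis) at day 7 (green circles) and day 14 (red squares) for the 16 probes (y axis), with bars for the spot error, open symbols for bounds and dashed lines at 3-fold. The day 7 and day 14 values of a probe lie side by side for all probes but Bmi1 A_51_P121547, which stands at -2.31 at day 7 and 0.62 at day 14.

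Bmi1 was 5.24-fold lower than EHe at day 7 on the brighter probe (-2.39 ± 0.21) and 4.96-fold lower on the second (-2.31 ± 0.24). At day 14 the brighter probe was 4.85-fold lower (-2.28 ± 0.21) and the second 1.54-fold higher (0.62 ± 0.21). The direction of Bmi1 at day 14 therefore rests on the choice of probe. Against day 7 the second probe was 7.61-fold higher at day 14 (2.93 ± 0.24), while the brighter probe differed by 0.11 ± 0.21, less than its spot error. The raw pixels gave the same picture for the second probe, with a median of 103 over a local background of 61 at day 7 and 435 over 82 at day 14. On the brighter probe they were 202.5 over 78 at day 7 and 224 over 95 at day 14.

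Between day 7 and day 14 the 10 genes moved little. None passed 3-fold on its representative probe, where 0.528% of 14386 named genes were over 3-fold higher and 0.695% lower, and the 10 differences lay between -0.18 (Cbx7) and 0.13 (Ring1). All 10 were smaller than their spot error.

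Over the 6 genes with a pair of probes and 6 comparisons, probes of 1 gene lay more than 3-fold apart in 3 of 36 cases. All 3 cases were Bmi1 and involved EHeD14. The gap was 7.44-fold for EHeD14 minus EHe, where 3.16% of 8004 probe pairs of named genes lay over 3-fold apart, and 7.04-fold for EHeD14 minus EHeD7, where 0.811% of 8506 pairs did. For EHeD14 minus Hepa1-6 it was 3.57-fold, where 14.1% of 8687 pairs did. In the 30 cases of the other 5 genes the largest gap was 0.90 and the median 0.27 on the log2 scale. Both Bmi1 probes were listed with the same RefSeq transcript, and their positions on it were not used here.

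Among the other Polycomb genes, Phf19 was lower at both days, by 3.42-fold at day 7 (-1.78 ± 0.20) and 4.08-fold at day 14 (-2.03 ± 0.20). Mtf2 was 3.22-fold lower at day 14 (-1.69 ± 0.20), on the 3-fold line with quantile normalization (-1.58, not counted). No further gene of the 14 PRC1 genes with a value (Cbx8 had none), 6 PRC2 and 5 demethylase and deubiquitinase genes passed 3-fold. Of the 10 genes of cell division none passed 3-fold at either day, with medians of -0.45 and -0.24.

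Cell type markers changed over the same interval. Of 5 ES cell markers 3 were over 3-fold lower at day 14, beside 4.91% of all named genes. They were Esrrb (116-fold), Zfp42 (17.0-fold) and Sox2 (4.48-fold), while Pou5f1 was not lower (0.13). Of 5 fibroblast markers 4 were over 3-fold higher at both days (Col1a1, Col1a2, Thy1 and Pdgfrb), beside 7.57% and 7.61% of all named genes. Of 5 genes listed for trophoblast Krt8, Krt18 and Eomes were also higher, while Cdx2 and Elf5 gave no value. Krt8 and Krt18 had their highest levels in Hepa1-6 (7.49 and 7.67), so here they do not mark trophoblast alone. With normexp Pdgfrb was within 3-fold at day 14 (1.38). Of 4 neural markers 1 was higher (Nes) and 1 lower (Tubb3), too few genes to set beside the shares of all named genes. Whether other cell types were present, and their part in the lower levels of Bmi1, was not tested. Of 8 Polycomb targets with a difference 3 were over 3-fold higher than EHe at day 14 and 1 lower, beside 7.61% and 4.91% of all named genes. Hand1 was at least 35.2-fold higher, Sox17 4.69-fold and Gata6 3.64-fold higher, and Pax6 at least 40.3-fold lower. Gata6 (-0.24) and Sox17 (-1.74) were then still below their ES levels (1.59 and -1.27), while Hand1 (0.30) was above its own (-1.75). The Pax6 value rests on probe A_52_P565559, at -4.59 in ES and -0.22 in EHe. Its second probe, A_52_P469306, was not well above background on any array. With normexp Sox17 at day 14 was within 3-fold of EHe (1.35). Over the scalings the smallest log2 differences of Hand1 and Pax6 from EHe were 3.65 and -3.49, both past 3-fold. Log2 differences of Cdkn2a from EHe were -0.63 (day 7) and -1.08 (day 14), within 3-fold.

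The last comparison, EHeD14 with Hepa1-6, asks how near the differentiated hybrid came to its hepatoma parent. Of the 10 genes 2 were over 3-fold higher in EHeD14, Cbx7 (at least 99.5-fold) and Jarid2 (15.7-fold, 3.97 ± 0.20), and 1 was over 3-fold lower, Bmi1 (4.91-fold, -2.30 ± 0.21). Of 14491 named genes 18.8% were higher and 13.0% lower. The second Bmi1 probe was 1.38-fold lower (-0.46 ± 0.21). Ezh2, Cbx2, Suz12 and Eed were higher in EHeD14 by 1.21, 1.21, 1.04 and 0.93 on the log2 scale, under 3-fold. The small differences of Rnf2 (0.40 ± 0.20) and Ezh1 (0.27 ± 0.21) changed sign with median centring, to -0.40 and -0.54. Yaf2 was 5.87-fold, Phc2 3.81-fold and Phc3 3.56-fold lower in EHeD14, and Phc1 12.3-fold, L3mbtl2 3.88-fold, Mtf2 3.34-fold, Asxl2 3.38-fold, Rbbp7 3.1-fold and Phf19 at least 15.3-fold higher. Of these, L3mbtl2 (1.15), Mtf2 (0.93), Asxl2 (0.95) and Rbbp7 (0.83 on the log2 scale) were within 3-fold with median centring, and Phc3 (-1.54) with normexp, while Yaf2, Phc2, Phc1 and Phf19 stayed past it. Other genes came past 3-fold lower in EHeD14 only with another scaling. Cbx8 (-1.57, just under the threshold) went to -2.34 with quantile normalization and -2.38 with median centring, and Aebp2 (-1.22) to -2.02 with median centring. The second Asxl2 probe was within 3-fold (levels of -2.35 in EHeD14 and -3.61 in Hepa1-6), as was Mtf2 probe A_52_P106805 (1.21 and -0.23). For Cbx7 the minimum was 29.5-fold with normexp and 56.9-fold with median centring. Cdkn2a was 51.5-fold and Cdkn2b 36.2-fold lower in EHeD14 than in Hepa1-6.

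**Figure D4:**
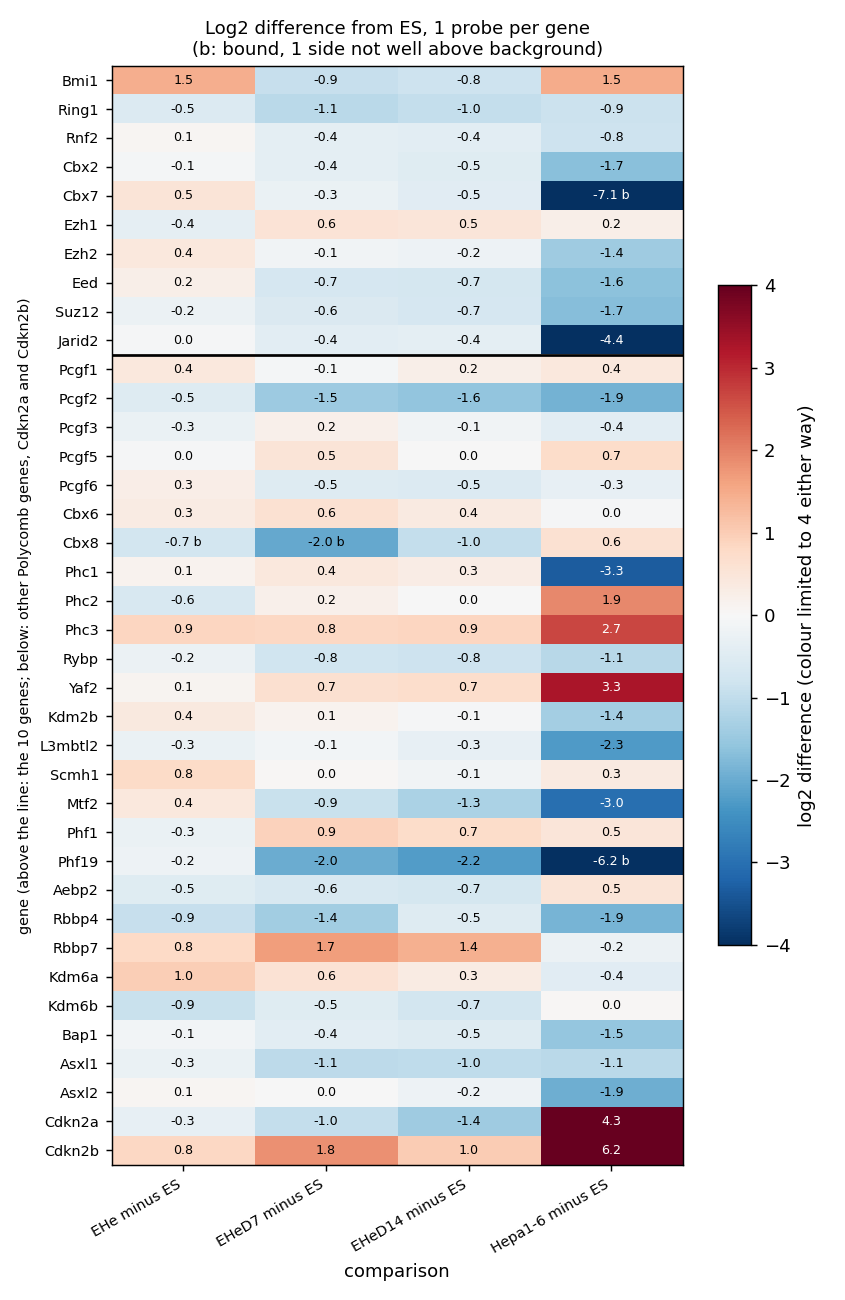
Log2 difference from ES (colour and printed value) of the 10 genes (above the line), other Polycomb genes and the inhibitor genes Cdkn2a and Cdkn2b (below it) in EHe, EHeD7, EHeD14 and Hepa1-6 (columns), 1 probe per gene, with b beside a bound. The strong colours stand in the Hepa1-6 column, while in the 3 hybrid columns the 10 genes stay between -1.09 (Ring1, EHeD7) and 1.46 (Bmi1, EHe).

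The genes whose levels over the 5 arrays ran most like those of Bmi1 were looked up among 10877 genes well above background on all arrays, by the root mean square distance of log2 levels centred over the 5 arrays. For the brighter Bmi1 probe they were Tcf4 (0.17), Frmd4a (0.20) and Nppb (0.26). For the second probe they were Pigz (0.61), Slc39a3 (0.64) and Nudt2 (0.78). The lists share no gene, and with 5 arrays a near match is a description only.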

How the data were processed

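Gene expression was measured on 5 Agilent mouse arrays, 1 per condition, as labelled. For each array the authors deposited the output of the scanner software (Agilent Feature Extraction 10.7.3.1), which holds for each spot an intensity, the processed signal, which the software had corrected for background and which was not normalized between arrays, together with its error, the spot and background pixel intensities and 0 or 1 calls. The deposited series table held the same intensity values (largest relative difference 0). The labels give Cy3 and the study's methods Cy5 as the dye, and for differentiation the methods describe embryoid bodies in serum replacement medium without naming the array samples.

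Control spots and outlier spots (73 to 174 per array) were left out, and no spot was saturated. Log2 values of the deposited signals were shifted by each array's 75th percentile (1087 to 1456 in signal units) and spots of the same probe averaged. Of 41174 probes, 29975 were well above background on at least 1 array and were kept. Of all probes, 26888 were named through 1 RefSeq symbol, and the rest were not used for genes. The probe with the highest mean level stood for a gene.

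The genes named are the 10 members with every probe, the companion genes past 3-fold in a comparison described, and for each Bmi1 probe the 3 nearest patterns. Some companion genes that passed it only on another probe or under another scaling are named also. One gene of the companion lists is not reported here and was left out of their counts. The members and lists were chosen with earlier results of these data known. The t-test of the study's methods was not run because each condition had 1 array. The alternatives were signals not raised to the detection limit, quantile normalization, median centring, normexp (offset 50), a 2-fold threshold, the mean of a gene's probes, probes well above background on all 5 arrays and the series table. Calling was tested on simulated data, and the outcome is not given here. Python 3.11.15, numpy 2.4.6, pandas 2.3.3, matplotlib 3.10.9, R 4.3.3 and limma 3.58.1 were used.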

Additional observations from a re-analysis of the deposited data

Results flagged for a closer look

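The second Bmi1 probe, A_51_P121547, moved in opposite directions from EHe at the 2 times of differentiation. It was lower at day 7 (-2.31 ± 0.24 on the log2 scale) and higher at day 14 (0.62 ± 0.21), a difference of 2.93, and both comparisons share the EHe array. With 1 array per time this difference was not tested. The brighter Bmi1 probe, A_52_P39157, was lower at both times.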

How the results depend on the processing

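No paired analysis was possible because the labels give 1 array per condition, and for the same reason no replicate could be left out. Of 360 single-gene differences recomputed under the alternatives, 280 moved by less than 0.14 on the log2 scale, a tolerance set from the SD between repeated spots of a probe, 80 moved by more, and none that had passed 3-fold changed sign. Part of the 280 could not move, so the count overstates how well the differences held. The series table held the values already used, and the mean of the probes leaves the 4 genes with 1 probe as they were. Signals not raised to the detection limit change only probes that were dim on 1 array. The counts of genes past 3-fold changed by over 1.5 times in 4 cases. For Hepa1-6 minus ES median centring gave 3 genes in place of 5. For EHeD14 minus EHe the mean of a gene's probes gave 0 in place of 1, because it averages the disagreeing Bmi1 probes (-0.83 on the log2 scale). The 2-fold threshold gave 1 in place of 0 for EHe minus ES and 6 in place of 3 for EHeD14 minus Hepa1-6. Quantile normalization and the mean of the probes each kept 5 genes for Hepa1-6 minus ES, but as 1 higher and 4 lower in place of 0 and 5. With normexp the lower signal of the second Bmi1 probe at day 7 was within 3-fold of EHe (-1.19), and its excess of day 14 over day 7 was 1.66. With 1 array per condition, the size of the differences between cultures of 1 condition is unknown, and the spot error is a lower limit on the error of each value. Dim probes, such as the second Cbx2 probe, limit a difference to a bound.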
